A study of Mus musculus with 2 samples.

Results

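Arg1-positive monocytes and macrophages were 64 of the 7734 cells that passed quality filters in 2 single-cell RNA libraries of CD45-sorted cells from mouse oral carcinomas, 47 in the Momordicine-I library and 17 in the vehicle library. They were chosen by a gate on raw unique molecular identifiers (UMIs, each standing for 1 captured transcript molecule) and not by clustering. A cell entered with at least 1 UMI of Arg1 and at least 3 of Lyz2, fewer than 3 of C1qa, C1qb and C1qc together and fewer than 2 of Cd209a and Mgl2 together. It also had to hold 0 UMIs of Cd3e, Cd79a, Krt8 and Krt18, and at most 2% of its UMIs from the neutrophil genes S100a8, S100a9, G0s2, Csf3r and Retnlg. The gate therefore set the levels of these genes, and those levels given below are a description. The cells carry the broad names of both lineages because the gate does not part monocytes from macrophages.

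Tumours were raised by injecting MOC2, a carcinoma line from the mouse oral cavity, with Matrigel under the flank skin of C57BL/6 females aged 6 to 7 weeks. Once tumours could be felt, randomised mice were given Momordicine-I, a triterpenoid of bitter melon, at 30 mg/kg into the peritoneum every day in DMSO and Captisol, or the vehicle alone, with 10 mice in an arm. Tumours of 3 mice of an arm were pooled, sorted for CD45 by a FITC-labelled antibody with propidium iodide as the dead-cell stain, and made into 1 library. The Momordicine-I group and the vehicle group thus shared the strain, sex, tumour line, sort and chemistry, and differed in the compound. With 1 library per group there was no replicate, so differences between the groups have no test, and all intervals below are exact 95% intervals that cover counting error only and take the UMIs of a cell as independent.

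Arginase 1 splits arginine into ornithine and urea. In tumours it is known as a product of monocytes, macrophages and neutrophils that can lower the arginine available to T cells. Blood monocytes that enter a tumour are known to lose Ly6c2 and Plac8 and to take up macrophage genes such as C1qa, Apoe and Mrc1, and tumour macrophages in poorly oxygenated regions are known for Arg1, Vegfa and glycolytic enzymes.

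The gated cells carried monocyte and macrophage markers. All 8 monocyte markers and all 10 macrophage markers checked were detected in both libraries, at 0.210% and 0.313% of UMIs in the Momordicine-I cells and 0.251% and 0.276% in the vehicle cells. Detection alone does not set the members apart, since T cells and neutrophils of both libraries also held all of these markers. Monocyte markers took 0.112% of UMIs in Momordicine-I and 0.134% in vehicle T cells, and macrophage markers 0.0727% and 0.0361%. Cells that met the gate but for 0 Arg1 UMIs had 0.464% and 0.552% for monocyte markers, and 0.306% and 0.261% for macrophage markers. Clec5a, a DAP12-coupled lectin receptor of myeloid cells that the gate did not use, had UMIs in 28 of 47 Momordicine-I and 14 of 17 vehicle cells, and Vegfa, an angiogenic growth factor, in 31 and 10. The members were deep cells, with a median of 15634 UMIs (range 638 to 66399) in the Momordicine-I library and 18006 (2392 to 32480) in the vehicle library, against 5002 and 5760 over all filtered cells. A list of 10 neutrophil markers took 0.749% of UMIs in Momordicine-I members (0% to 2.24% per cell) and 0.863% in vehicle members (0.0356% to 2.26%), with its defining marker Ly6g at 0 in both. The per-cell share of the 5 neutrophil genes of the gate was lower in Momordicine-I members, with a median of 0.0823% against 0.753%, and 17 of 47 against 11 of 17 cells lay above 0.5%. Markers of T cells, B cells, NK cells, type 2 innate lymphocytes, basophils and mast cells, conventional and mature dendritic cells, endothelium and fibroblasts each stayed at or below 0.0144% in both libraries, plasmacytoid dendritic markers were at 0.0213% and 0.0228%, erythroid markers were at 0, and epithelial markers were at 0.00728% and 0.0328%. These are pooled shares, and single members reached 0.757% for NK markers (Momordicine-I) and 0.213% for conventional dendritic markers (vehicle). Epithelial-marker UMIs lay in 19 of 47 Momordicine-I and 13 of 17 vehicle members. Cells that met the gate but for 0 Arg1 UMIs had them in 29 of 114 and 8 of 44. Among all deposited barcodes, 10 were shared by the libraries, and 0 of these belonged to members.

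Arg1-positive cells took a larger share of the Momordicine-I library. They were 1.08% of its 4370 filtered cells (95% interval 0.791% to 1.43%), against 0.505% of the 3364 filtered vehicle cells (0.295% to 0.808%), a ratio of 2.13 (1.2 to 3.95). Because neutrophils made up much of each library, the share was also taken of cells with at most 2% neutrophil-marker UMIs, and it was 2.32% of 2023 Momordicine-I cells against 0.995% of 1709 vehicle cells, a ratio of 2.34 (1.32 to 4.34). Phagocytes passing the same gate but with 0 Arg1 UMIs, called Arg1-zero phagocytes here, showed a like ratio, with 114 cells (2.61%) in the Momordicine-I library and 44 cells (1.31%) in the vehicle library, a ratio of 1.99 (1.40 to 2.89). Among Lyz2 phagocytes, which join the Arg1-positive cells, the Arg1-zero cells and the C1q phagocytes with 3 or more C1q UMIs, the members made up 22.7% of 207 Momordicine-I cells (17.2% to 29.0%) and 19.1% of 89 vehicle cells (11.5% to 28.8%). That ratio was 1.19 with an interval of 0.670 to 2.21, which includes 1, so a difference in the Arg1-positive share among Lyz2 phagocytes was not detectable at this depth. Shares of a sorted library say nothing of cell numbers in the tumour.

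Arg1 itself, encoded at chr10:24915221-24927484, minus strand of GRCm38, was spread widely over the members. The median was 3 UMIs per cell (range 1 to 81) in the Momordicine-I library and 6 (1 to 176) in the vehicle library. Exactly 1 UMI was found in 19 of 47 and 4 of 17 cells, and 20 or more in 10 and 6 cells. A few cells held much of the Arg1 RNA, since the top 3 cells carried 33.0% of it in the Momordicine-I library and 66.9% in the vehicle library. Summed over the cells and scaled to counts per 1000000 UMIs (CPM), Arg1 stood at 769 CPM in the Momordicine-I library and 1557 CPM in the vehicle library. Every member held Arg1 by the gate, so the share of members with an Arg1 UMI could not differ between the libraries. The per-cell medians, 222 CPM in Momordicine-I and 436 CPM in vehicle members, leaned the same way as the sums. The gate required the gene, so neither the sums nor the medians are a test of it.

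Many cells lay near the edges of the gate. Of cells that met every other condition, 114 Momordicine-I and 44 vehicle cells had 0 Arg1 UMIs, 21 and 4 had 1 or 2 Lyz2 UMIs, 27 and 16 had 3 or more C1q UMIs, and 62 and 20 held over 2% neutrophil-marker UMIs. Inside the edges, 7 and 1 members had 3 to 5 Lyz2 UMIs, and C1q UMIs were at 0 in 37 and 15 members. Lyz2 had a median of 39 UMIs in members of both libraries, up to 1419 in Momordicine-I and 272 in vehicle members. Arg1, Lyz2, Vegfa and Clec5a together took 0.756% of UMIs in Momordicine-I and 0.567% in vehicle members. The cells with 0 Arg1 UMIs had more, 1.01% and 1.07%, although they held no Arg1. Members held 15.2% of all Arg1 UMIs of filtered Momordicine-I cells and 15.9% of those of vehicle cells, against 35.4% and 22.8% in neutrophils, so most Arg1 RNA lay outside the gate.

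Lymphocytes show how often an Arg1 UMI occurs outside myeloid cells, and whether free RNA or doublets gave it was not tested. In B cells, which should lack the gene, 2 of 82 Momordicine-I cells (2.44%) and 9 of 222 vehicle cells (4.05%) had an Arg1 UMI, at median depths of 4974 and 6189.5 UMIs. In T cells the shares were 9.73% of 257 and 5.32% of 282 cells. Among Lyz2 phagocytes with under 3 C1q UMIs, 29.2% of Momordicine-I and 27.9% of vehicle cells had an Arg1 UMI at median depths of 14131 and 14132. In these phagocytes 17.4% and 21.3% had 2 or more, against 1.22% and 0.450% of B cells and 4.67% and 2.84% of T cells. T cells had median depths of 7874 and 8684.5 UMIs, so both background sets were shallower than the phagocytes. After each cell was thinned to 2000 UMIs, Arg1 remained in 22 of 46 Momordicine-I members (47.8%) and 10 of 17 vehicle members (58.8%). Cells with 1 Arg1 UMI can therefore include Arg1-negative phagocytes. The comparisons by Arg1 level further below cannot separate them, since the Arg1 CPM of a cell with 1 UMI depends on its depth alone.

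**Figure D1:**
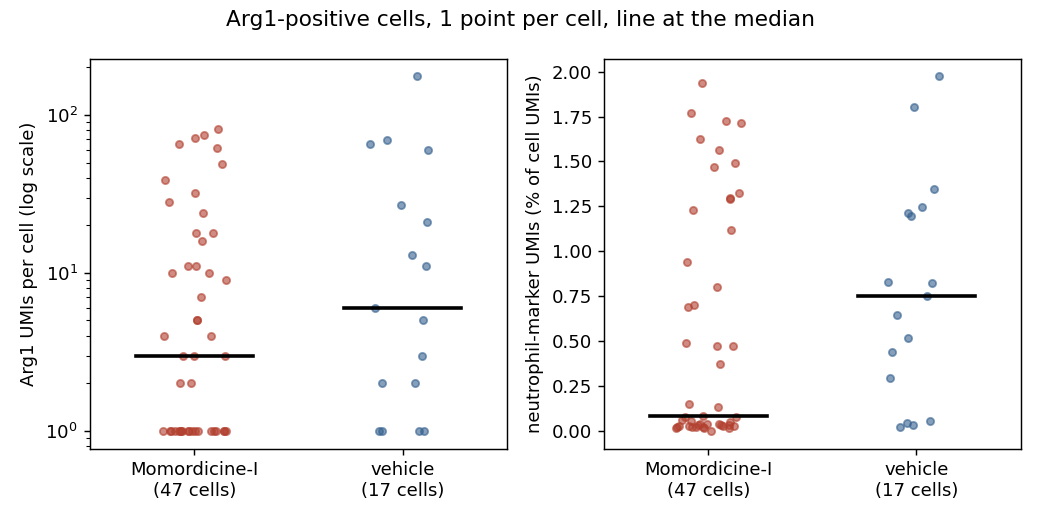
Arg1 UMIs per cell on a log axis and the per-cell percentage of UMIs from 5 neutrophil genes, 1 point per Arg1-positive cell, with a line at the median of each library. Arg1 medians are 3 UMIs in 47 Momordicine-I cells and 6 UMIs in 17 vehicle cells, and neutrophil-marker medians are 0.0823% and 0.753%.

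Next to Arg1-zero phagocytes of the same library, Arg1-positive cells carried more RNA of glycolytic enzymes and of genes induced by low oxygen, and less of monocyte genes, in both libraries. MHC class II genes were lower in the pooled sums but not in the typical cell. Of 17 glycolysis genes, 16 had a ratio above 1 in both libraries and 0 were below 1 in both. Of 17 hypoxia-list genes, 15 were above 1 in both and 0 below. The background over 8262 genes with at least 20 UMIs was 28.5% above 1 in both libraries and 24.3% below 1 in both. By the stricter rule of a 2-fold difference in both libraries, 0.88% of 6025 genes with at least 50 UMIs were higher and 1.26% were lower in Arg1-positive cells, so that few genes differed by that much. Lists were counted from 20 UMIs, where the shares were 1.42% and 1.62% of 8262 genes.

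Gapdh, the enzyme that oxidises glyceraldehyde 3-phosphate (chr6:125161715-125166467, minus strand), stood at 2322 CPM in the Momordicine-I library and 2269.9 CPM in the vehicle library in Arg1-positive cells, against 1523 and 1176 CPM in Arg1-zero phagocytes. The ratio was 1.52 (1.44 to 1.62) in the Momordicine-I library and 1.93 (1.74 to 2.14) in the vehicle library. Every member had Gapdh UMIs, and the top cell held 9.50% and 16.8% of them. Pgam1, phosphoglycerate mutase, had ratios of 1.62 (1.42 to 1.84) in the Momordicine-I library and 1.86 (1.48 to 2.34) in the vehicle library. Tpi1, triosephosphate isomerase, had ratios of 1.52 (1.33 to 1.73) in the Momordicine-I library and 2.84 (2.30 to 3.51) in the vehicle library. Aldolase A, Aldoa, was 1.80 and 1.57 times its Arg1-zero level in the Momordicine-I and vehicle libraries, Pgk1, phosphoglycerate kinase, 1.52 and 2.69 times, and Ldha, lactate dehydrogenase A, 1.61 and 1.73 times. Pfkp, a phosphofructokinase, was the exception in direction, at 1.18 and 0.757. Pdk1, the mitochondrial kinase that inhibits pyruvate dehydrogenase, was the 1 glycolysis gene past 2-fold in both libraries, at 2.66 and 5.17, from 36 and 21 UMIs. Median log2 ratios of the list were 0.61 in the Momordicine-I library and 0.93 in the vehicle library, against 0.09 and -0.03 over all genes with at least 20 UMIs.

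Per cell the same lists overlapped between the sets. Glycolysis genes took a median of 0.835% of a member's UMIs in the Momordicine-I library and 0.810% in the vehicle library, against 0.506% and 0.403% in Arg1-zero phagocytes, with member cells between 0.184% and 1.61% and between 0.333% and 2.76%. Hypoxia genes took 0.313% and 0.334%, against 0.179% and 0.124%. C1q phagocytes also lay above Arg1-zero phagocytes, with medians of 0.756% in the Momordicine-I and 0.556% in the vehicle library for glycolysis. Their hypoxia medians were 0.319% and 0.241%, so higher glycolysis and hypoxia RNA was not particular to the members. Neutrophils also use these genes, and the neutrophil-marker share of vehicle members was above that of vehicle Arg1-zero phagocytes, with medians of 0.753% against 0.0695%, whereas the Momordicine-I medians were 0.0823% and 0.0598%. Its part in the vehicle ratios was not tested.

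The promoters of these enzymes were searched for the core of the hypoxia response element, the letters ACGTG on either strand, bound by the HIF transcription factors. In RefSeq windows of GRCm38.p6 from 250 bases before to 50 bases after each start, the core stood in 11 of 17 glycolysis genes (64.7%), in 13 of the 15 hypoxia-list genes with a window (86.7%) and in 5886 of 27025 genes of the genome (21.8%). Among the genes chosen by rank, 7 of 11 higher genes with a window held it (63.6%), against 1 of 5 lower genes (20%). Tpi1 and Pdk1 windows held none. The windows of 3 enzymes are printed because they belong to steps of the pathway that follow each other and differ in the number of matches, with the core in capitals, 5′ to 3′ on the gene's strand. They are Gapdh (chr6:125165724-125166023, minus strand, 1 match), Pgk1 (chrX:106186850-106187149, plus strand, 2 matches) and Pgam1 (chr19:41911621-41911920, plus strand, 1 match). The glycolysis and hypoxia lists were chosen by function, and the genes of the genome include genes not expressed in these cells. The genes chosen by rank came from these same data, include enzymes of the glycolysis list and leave 5 windows on the lower side. Neither the list shares nor the rank shares therefore say anything of the difference between the cell sets. A match is a description of the letters and no evidence of binding.
Gapdh: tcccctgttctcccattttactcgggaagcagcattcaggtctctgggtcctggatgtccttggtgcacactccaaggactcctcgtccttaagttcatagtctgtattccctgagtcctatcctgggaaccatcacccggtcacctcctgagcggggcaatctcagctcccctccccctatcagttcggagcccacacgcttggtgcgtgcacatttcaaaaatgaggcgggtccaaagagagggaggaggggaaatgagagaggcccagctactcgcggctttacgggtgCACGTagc
Pgk1: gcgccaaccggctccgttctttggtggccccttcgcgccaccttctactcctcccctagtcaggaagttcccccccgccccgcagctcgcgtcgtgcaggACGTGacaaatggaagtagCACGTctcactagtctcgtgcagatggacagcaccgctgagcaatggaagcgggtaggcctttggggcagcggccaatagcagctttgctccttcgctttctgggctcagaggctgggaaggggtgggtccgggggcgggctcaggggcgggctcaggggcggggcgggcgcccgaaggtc
Pgam1: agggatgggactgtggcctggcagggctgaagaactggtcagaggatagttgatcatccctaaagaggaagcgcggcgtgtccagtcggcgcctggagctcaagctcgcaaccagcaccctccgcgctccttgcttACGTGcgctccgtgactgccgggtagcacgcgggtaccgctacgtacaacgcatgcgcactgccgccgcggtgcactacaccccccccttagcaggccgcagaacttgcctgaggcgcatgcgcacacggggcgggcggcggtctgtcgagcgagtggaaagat

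Other genes of low oxygen and growth factor biology were higher in Arg1-positive cells. Mif, a secreted cytokine of the hypoxia list, was 2.24 (1.97 to 2.54) in the Momordicine-I library and 2.57 (2.04 to 3.24) in the vehicle library. Egln3, an oxygen-sensing prolyl hydroxylase, was 2.40 and 3.63 times its Arg1-zero level. Hbegf, an EGF receptor ligand, was 3.64 and 6.96 times, with UMIs in 19 Momordicine-I and 10 vehicle members. The placental growth factor gene Pgf was seen in only 7 and 5 members and had ratios of 14.2 (4.33 to 73.4) in the Momordicine-I library and 4.87 (2.22 to 11.5) in the vehicle library. Vegfa was higher in the Momordicine-I library, where members stood at 459 CPM against 219.7 CPM in Arg1-zero phagocytes, a ratio of 2.09 (1.80 to 2.42). In the vehicle library the ratio was 0.874 (0.630 to 1.2), from 187 against 215 CPM, and the difference between the libraries was not tested. Clec5a was higher in both, with 187 CPM in the Momordicine-I library and 208 CPM in the vehicle library in members, and ratios of 2.37 (1.86 to 3.02) in the Momordicine-I library and 5.09 (3.19 to 8.32) in the vehicle library, although 1 cell held 41.9% of the Momordicine-I UMIs.

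The genes ranked highest by the interval bound nearest 1 mixed these enzymes with others. Cdk6, a cyclin-dependent kinase, had ratios of 3.1 (2.13 to 4.57) in the Momordicine-I library and 2.83 (1.69 to 4.77) in the vehicle library. Cd9, a tetraspanin of the plasma membrane (chr6:125460266-125494791, minus strand), stood at 494 CPM in the Momordicine-I library and 593 CPM in the vehicle library in members, against 270.4 and 331 CPM in Arg1-zero phagocytes, ratios of 1.83 and 1.79. Neutrophils had 1199 and 1379 CPM of Cd9. Ctsd, the lysosomal protease cathepsin D, was 1.73 and 1.60 times its Arg1-zero level, Cstb, the protease inhibitor cystatin B, 1.56 and 1.81 times, and Gsn, the actin-severing protein gelsolin, 1.75 and 1.74 times. B4galt1, Eif5a and Atf1 completed the 12, with ratios between 1.46 and 2.26. With members limited to cells holding at most 0.5% neutrophil-marker UMIs, 10 of the 12 stayed above 1 in both libraries, and vehicle Eif5a and Gsn stood at 0.980 and 0.865.

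Some matrix and alternative-activation genes were higher in Arg1-positive cells, several of them from few cells. Mmp14, a membrane-anchored matrix protease, was 2.97 and 2.25 times its Arg1-zero level, with UMIs in 34 of 47 and 13 of 17 members. Ecm1, a secreted extracellular matrix protein, was 2.12 and 4.89 times. Mrc1, the mannose receptor, stood at 92.9 CPM in the Momordicine-I library and 30.1 CPM in the vehicle library in members, ratios of 5.05 (3.25 to 8.04) in the Momordicine-I library and 4.99 (1.39 to 22.2) in the vehicle library, in 14 and 4 cells. Mmp12, the macrophage elastase, had 144 UMIs in 12 Momordicine-I members and 62 in 3 vehicle members, with 49.3% and 96.8% in 1 cell. Ccl24, an eosinophil attractant, likewise had 52.7% and 61.2% of its UMIs in 1 cell. Across the 20 measured matrix genes, 12 were above 1 in both libraries and 4 below, and 5 passed 2-fold in both (Ecm1, Mmp12, Mmp14, Plau and Timp1). Of 13 M2-associated genes, 3 passed it as higher (Mrc1, Ccl24 and Socs2) and 1 as lower (Ear2).

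Monocyte genes were lower. Plac8 (chr5:100553725-100572245, minus strand), a small cysteine-rich protein of inflammatory monocytes, came first by rank, at 559.8 CPM in the Momordicine-I library and 907 CPM in the vehicle library in members, against 1827 and 2446 CPM in Arg1-zero phagocytes, ratios of 0.306 (0.278 to 0.337) in the Momordicine-I library and 0.371 (0.325 to 0.422) in the vehicle library. After thinning to 2000 UMIs it was seen in 45.7% of Momordicine-I and 64.7% of vehicle members, against 66.7% and 71.4% of Arg1-zero phagocytes. Ly6c2, which marks classical monocytes, was 0.375 (0.322 to 0.436) in the Momordicine-I library and 0.168 (0.126 to 0.221) in the vehicle library. Ccr2, the receptor that draws monocytes from blood, was less far from 1, at 0.760 and 0.653, and Chil3, a chitinase-like secreted protein, at 0.633 and 0.509. Of 21 measured monocyte genes, 13 were below 1 in both libraries and 3 above, with Plac8, Ifitm6, Cx3cr1, Ace and Ly6c2 past 2-fold. Per cell the list took a median of 1.34% of UMIs in Momordicine-I and 1.27% in vehicle members, against 1.61% and 1.76% in Arg1-zero phagocytes. C1q phagocytes were lower still, at 0.769% and 0.654%. Vehicle Cx3cr1 turned to 1.2 with members limited to 0.5% neutrophil-marker UMIs. Ly6c2 has near-identical neighbours in its family, so reads can be split among them.

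The antigen-presentation genes lay on the same side in pooled CPM. All 9 MHC class II genes measured were below 1 in both libraries, with median log2 ratios of -0.85 in the Momordicine-I and -1.16 in the vehicle library. Per cell the order was not the same, since class II genes took a median of 0.0535% of UMIs in Momordicine-I and 0.0425% in vehicle members, against 0.0369% and 0.0413% in Arg1-zero phagocytes. The highest cells reached 4.36% and 2.49% among members, against 5.08% and 4.92% among Arg1-zero phagocytes. H2-Ab1, a class II chain, was 0.464 and 0.479 times its Arg1-zero level, and Ciita, the class II transactivator, 0.209 and 0.374 times. Irf8, a transcription factor of monocytes and dendritic cells, was 0.387 and 0.176 times. Single cells carried much of the class II RNA, since the top member held 26.2% of it in the Momordicine-I library and 64.2% in the vehicle library, and the top Arg1-zero cell 14.3% and 28.3%. Vehicle H2-Ab1 turned to 1.28 without cells holding a UMI of markers of other types. Of 15 MHC class I genes, 11 were also below 1 in both. Cybb, the catalytic chain of the phagocyte NADPH oxidase (chrX:9435252-9487771, minus strand), stood at 269.8 CPM in the Momordicine-I library and 241 CPM in the vehicle library in members, against 692 and 916 CPM. The other lower genes by rank were Ifitm6, Smpdl3a, Lsp1, Cd300a and Tmsb10, with ratios from 0.257 for Momordicine-I Ifitm6 to 0.560 for vehicle Tmsb10. All 7 kept their direction in both libraries with members limited to 0.5% neutrophil-marker UMIs.

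**Figure D2:**
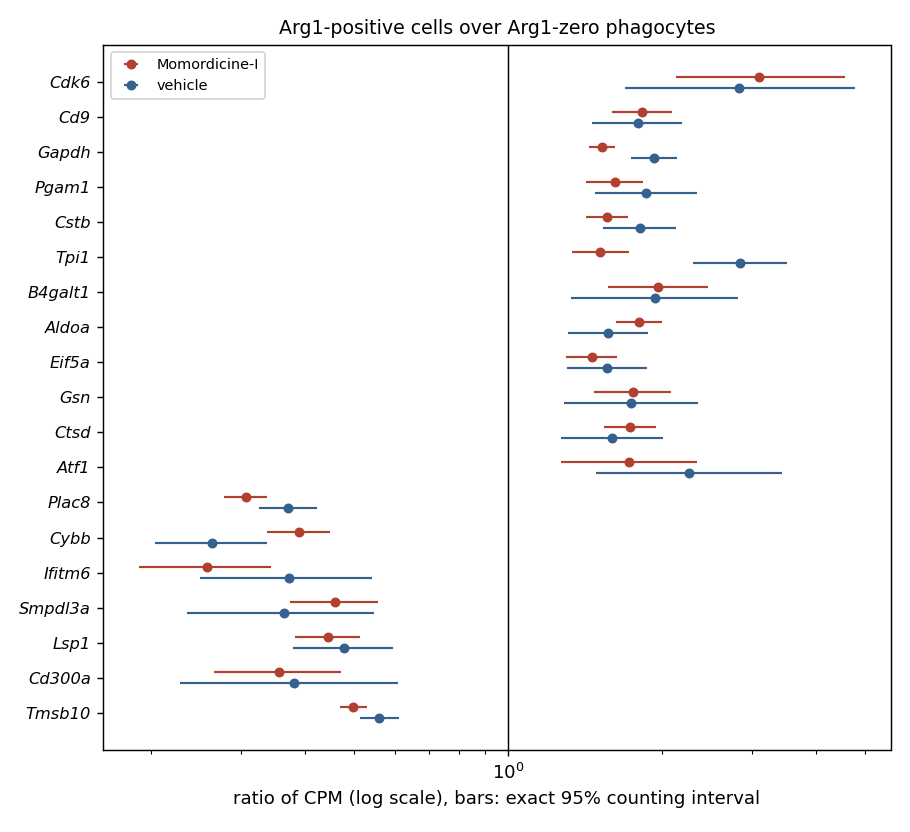
Ratio of CPM in Arg1-positive cells over Arg1-zero phagocytes for the 12 higher and 7 lower genes named by rank, in the Momordicine-I and vehicle libraries, on a log axis with exact 95% intervals. Plac8 lies at 0.306 and 0.371, and Gapdh at 1.52 and 1.93.

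Genes of arginine and polyamine metabolism other than Arg1 showed no shared direction. Of 13 measured, 0 passed 2-fold in both libraries either way, 2 were above 1 in both and 5 below. Odc1, ornithine decarboxylase, stood at 90.7 CPM in the Momordicine-I library and 104 CPM in the vehicle library in members, against 104 and 144 CPM, and Arg2, the mitochondrial arginase, had ratios of 0.706 and 1.23. Nos2, the inducible nitric oxide synthase that competes for arginine, had 20 UMIs in 4 Momordicine-I members and 15 in 2 vehicle members. Retnla, a gene of alternative activation, had 0 UMIs in either, and Il10 had 2 and 3.

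In the remaining lists few genes were 2-fold apart in both libraries, where the background from 20 UMIs was 1.42% higher and 1.62% lower. Of 20 myeloid transcription factors, Cited2, a transcriptional co-regulator that restrains HIF, was higher, at 2.73 and 2.87 times its Arg1-zero level, and Irf8 was lower. Of 17 lipid genes, Lpl, lipoprotein lipase, was higher, with UMIs in 7 Momordicine-I members and 1 vehicle member, and Fabp4 and Cd36, a fatty acid carrier and a fatty acid receptor, were lower. Of 9 complement genes, 2 were lower, Cfb among them, of 18 lectins and receptors 1 was higher (Clec5a) and 1 lower (Cd300a), and of 6 Fc receptors 1 was lower (Fcgrt). The cytokine gene Il6, from 4 and 3 cells, was the 1 higher and Gbp2 the 1 lower of 15 M1-associated genes. Cybb was the 1 lower of 14 checkpoint and suppressive genes, Ccl24 the 1 higher of 17 chemokine genes, and Mrc1 the 1 higher of 15 tissue macrophage genes. Of 12 stress-response genes, Atf5 was higher, from 12 and 5 UMIs, and Nupr1 lower, and of 27 interferon-response genes 2 were lower (Ifi205 and Irf7). No gene passed in the lists for NRF2 and iron (0 of 15), immediate early genes (0 of 18), IL-1 and NF-kB (0 of 17), cell cycle (0 of 12), oxidative phosphorylation (0 of 24) or MHC class I (0 of 15).

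**Figure D3:**
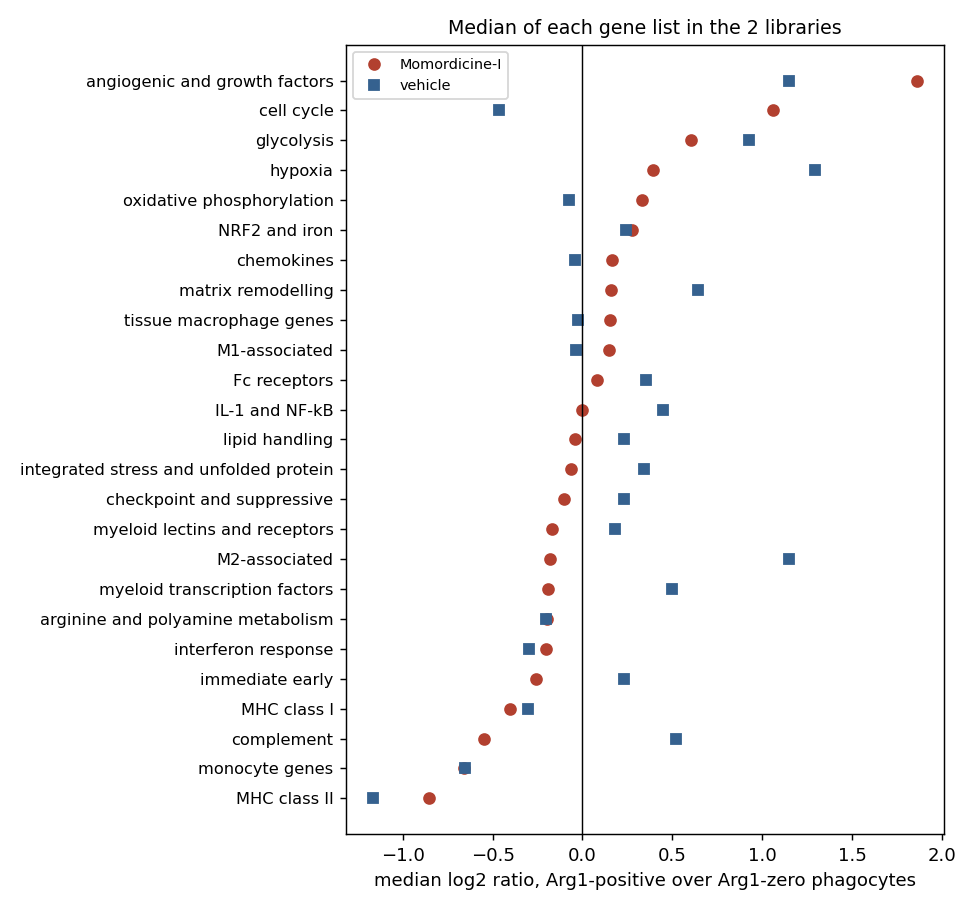
Median log2 ratio of Arg1-positive cells over Arg1-zero phagocytes for 25 gene lists, Momordicine-I and vehicle libraries. Glycolysis lies at 0.61 and 0.93, MHC class II at -0.85 and -1.16 in pooled CPM and monocyte genes at -0.66 in both.

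Set against other populations, the members held more RNA of monocyte and macrophage genes than the rest of the sort, and less of several macrophage genes than C1q phagocytes. Over all other filtered cells, 11.2% of 13367 genes were at least 2-fold higher in both libraries and 3.82% lower. Msr1, a scavenger receptor, was 7.06 times as high in the Momordicine-I and 10.1 times as high in the vehicle library, Fn1, fibronectin, 5.65 and 6.96 times and Tgfbi, a secreted matrix protein, 4.59 and 7.25 times. Against neutrophils, where 25.1% of 9258 genes were 2-fold higher and 5.55% lower in both libraries, Fn1 was 15.2 and 13.4 times and Ccr2 14.0 and 11.0 times as high. Against C1q phagocytes, where 0.56% of 5178 genes were 2-fold higher and 1.02% lower in both libraries, Apoe, a lipid carrier of macrophages, was 0.309 and 0.220 times and Aif1, an actin-bundling macrophage protein, 0.264 and 0.238 times as high, while S100a4, a calcium-binding protein, stood at 1.63 and 2.09. Arg1 was not particular to the members, since C1q phagocytes held 710.2 CPM in the Momordicine-I library and 488 CPM in the vehicle library.

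Among the members, pooled over both libraries, cells with more Arg1 held more glycolysis RNA and less interferon-response RNA. Cells of both libraries were put in order of Arg1 CPM and cut into a lowest set of 21 cells (34.0 to 132 CPM), a middle set of 21 (166 to 866) and a highest set of 22 (892 to 5580). Median depths were 16585, 14131 and 16220.5 UMIs, and median neutrophil-marker shares 0.132%, 0.939% and 0.0600%. Cells with 1 Arg1 UMI fell in every set by their depth. Momordicine-I examples had 28031 UMIs in the lowest, 5573 in the middle and 638 in the highest set. Glycolysis genes took 0.660%, 0.918% and 1.07% of UMIs in the lowest, middle and highest sets, and hypoxia genes 0.203%, 0.401% and 0.446%. Interferon-response genes took 0.374%, 0.229% and 0.140%. In Momordicine-I members the interferon shares were 0.285%, 0.167% and 0.103%, and 0.204%, 0.134% and 0.0852% when each set lost its highest cell, an alternative chosen after seeing the data. In vehicle members they were 0.717%, 0.485% and 0.209%, but 1 of the 4 cells of the lowest set held 81.2% of its interferon UMIs. Without the highest cell of each set the vehicle shares were 0.176%, 0.261% and 0.142%, so the vehicle order rested on that cell. The glycolysis order held in the Momordicine-I library at 0.662%, 0.842% and 1.09%, while vehicle members gave 0.653%, 1.24% and 1.04%.

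Single genes followed. Pgk1 stood at 309, 518 and 853 CPM in the lowest, middle and highest sets, and Cd9 at 329, 533 and 692 CPM. Vegfa was lower in the lowest set than in the others, at 196, 508 and 470 CPM, and Mrc1 at 7.54, 115 and 109 CPM. Ly6c2 ran the other way, at 364, 181 and 127 CPM, and Plac8 at 923, 528 and 490 CPM. The monocyte list as a whole did not follow Arg1, at 1.39%, 0.949% and 1.49% of UMIs in the lowest, middle and highest sets, with rho of 0.05 in Momordicine-I and 0.12 in vehicle members. Over single cells, Spearman's rho of Arg1 CPM with the glycolysis share was 0.43 in 47 Momordicine-I and 0.38 in 17 vehicle members, with the hypoxia share 0.41 and 0.59, and with the interferon share -0.31 and -0.44, all values of a cell sharing its UMI total. Ly6c2 gave -0.34 and 0.16, which differ in sign.

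**Figure D4:**
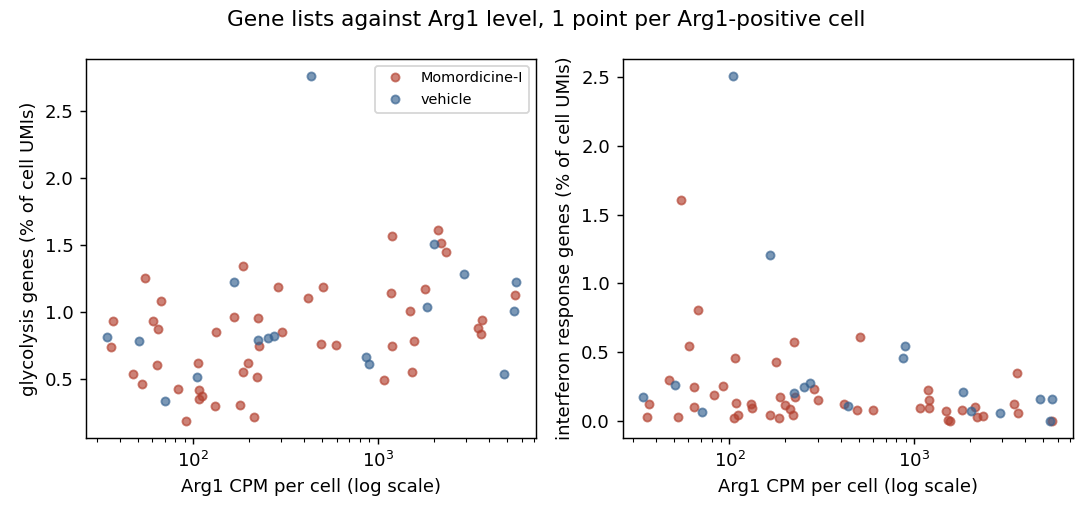
Percentage of each cell's UMIs from glycolysis genes and from interferon-response genes against its Arg1 CPM on a log axis, 1 point per Arg1-positive cell, by library. Spearman's rho is 0.43 in Momordicine-I and 0.38 in vehicle cells for glycolysis, and -0.31 and -0.44 for the interferon list.

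The question between the groups was how these cells differed under Momordicine-I. At least 1.5-fold differences in CPM were frequent with 17 vehicle cells behind the ratio: of 3338 genes with at least 50 UMIs, 585 (17.5%) were higher and 512 (15.3%) lower in Momordicine-I members. The 23 genes named by rank had UMIs in at least 10 cells, with no more than 20% of them in 1 cell, in the library where they were higher. All of them remained at least 1.5-fold different in the same direction with members limited to 0.5% neutrophil-marker UMIs, which left 30 Momordicine-I and 6 vehicle cells, when each gene lost its highest cell, and without cells holding a UMI of markers of other types. With 1 cell capped at 20% by the naming rule, the highest-cell check could hardly fail. All of these checks reuse the cells by which the genes were ranked, so they are no independent support. When each cell was thinned to 2000 UMIs, Tbxas1 and Smc3 turned to 0.493 and 0.739, and Jak2 and Gpr35 to 1.60 and 1.29. In these ratios a sum of 0 UMIs was set to a floor of 3 counts. Tbxas1 and Smc3 had few vehicle UMIs even before thinning, so their turns can rest on that floor and show no reversal.

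Trem2, a lipid-sensing receptor of tissue and tumour macrophages (chr17:48346401-48354147, plus strand), was higher in Momordicine-I members, at 137 CPM in the Momordicine-I library and 30.1 CPM in the vehicle library, a ratio of 4.53 (2.31 to 10.2). The ratio was 2.01 with members limited to 0.5% neutrophil-marker UMIs. Trem2 had UMIs in 28 of 47 and 4 of 17 cells, and Arg1-zero phagocytes stood at 42.1 and 25.7 CPM. Vegfa (chr17:46016993-46032369, minus strand) was at 459 CPM in the Momordicine-I library and 187 CPM in the vehicle library, a ratio of 2.45 (1.85 to 3.30), and 51.8% of its vehicle UMIs lay in 1 cell. Without its highest cell in either library the ratio was 4.34, at the 0.5% limit 6.4, and without cells holding a UMI of markers of other types 9.97. In Arg1-zero phagocytes the ratio of Vegfa was 1.02 (0.839 to 1.26). Ifi30, a lysosomal thiol reductase that prepares antigens for MHC class II (chr8:70762774-70766663, minus strand), stood at 906 CPM in the Momordicine-I library and 358 CPM in the vehicle library, a ratio of 2.53 (2.06 to 3.12), against 740.1 and 904 CPM in Arg1-zero phagocytes. Lgals1, galectin 1, an immune-regulatory lectin, was 2.26 (1.82 to 2.82), from 741 against 328 CPM. Atp5a1, a nuclear-encoded chain of the mitochondrial ATP synthase, was at 2.64 (1.93 to 3.68). The others were Fam102b, Kcnq1ot1, Tbxas1 (thromboxane synthase), Emc2, Smc3 and Gspt1, each with at most 7 vehicle UMIs and ratios from 3.92 for Gspt1 to 7.47 (2.45 to 37.1) for Fam102b. Kcnq1ot1 is antisense to Kcnq1, and strand use in counting is not given in the sources used here, so its reads cannot be told apart from that gene's.

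Cxcl2, a neutrophil-attracting chemokine (chr5:90903871-90905938, plus strand), was among the 12 genes named as lower in Momordicine-I members. It stood at 5949 CPM in the Momordicine-I library and 13395 CPM in the vehicle library, a ratio of 0.444 (0.426 to 0.463), with per-cell medians of 3135 and 8179 CPM. In Arg1-zero phagocytes it was 5303 and 5793 CPM, and in neutrophils 33013 and 35452 CPM. Lilr4b, a leukocyte receptor with a near-identical copy in Lilrb4a, had a ratio of 0.401 (0.358 to 0.451), and Srgn, the granule proteoglycan serglycin, 0.492 (0.467 to 0.517). Smox, the spermine oxidase of polyamine breakdown, was at 0.400 (0.319 to 0.504), and Il1rn, the interleukin 1 receptor antagonist, at 0.423 (0.348 to 0.515). Adam8, a membrane metalloprotease of leukocytes, was at 341 CPM in the Momordicine-I library and 787 CPM in the vehicle library, a ratio of 0.434 (0.365 to 0.517). Runx3, a transcription factor, was at 0.453 (0.372 to 0.554), and Jak2, a cytokine receptor kinase, Malt1, a signalling protease, Gpr35, Lgals9 (galectin 9) and Sla had ratios from 0.374 to 0.461. For 6 of the 12 lower genes (Lilr4b, Cxcl2, Smox, Il1rn, Srgn and Gpr35), and 0 of the 11 higher genes, neutrophils had more CPM than the members in both libraries. The neutrophil-marker share was lower in Momordicine-I members, with the medians given above, and its part in these differences was not tested. At a limit of 0.5% on that share Cxcl2 stood at 0.158 and Lilr4b at 0.331, farther from 1.

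Interferon-response genes were lower together in Momordicine-I members. Of 24 measured with at least 20 UMIs, 21 were at least 1.5-fold lower and 0 higher in Momordicine-I members, against a background of 16% lower and 24.8% higher over 5850 genes at that count, with a median log2 ratio of -1.45 against 0.06 over all of them. Arg1-zero phagocytes showed the same side, with 25 of 27 lower, 0 higher and a median of -1.76, where 12% of 7162 genes were lower. Isg15, a ubiquitin-like antiviral modifier (chr4:156199424-156200818, minus strand), stood at 109.7 CPM in the Momordicine-I library and 271 CPM in the vehicle library in members, a ratio of 0.405 (0.298 to 0.550), with UMIs in 18 and 9 cells, while neutrophils held 252 and 379 CPM. Rsad2, viperin (chr12:26442746-26456452, minus strand), stood at 80.6 CPM in the Momordicine-I library and 254 CPM in the vehicle library, a ratio of 0.317 (0.226 to 0.443), in 10 and 7 cells. Ifit3, an antiviral RNA-binding protein (chr19:34583531-34588731, plus strand) with a near-identical copy in Ifit3b, had 3 UMIs in 2 Momordicine-I cells against 39 in 4 vehicle cells, a ratio of 0.0257 (0.00509 to 0.0809). Cxcl10, a T cell attractant, had 1 UMI against 98 UMIs in 3 vehicle cells. Irf7, the master transcription factor of the response, was at 0.344 and Oasl2, an antiviral oligoadenylate synthetase relative, at 0.382. Bst2, Ifi27l2a and Ddx58 did not pass 1.5-fold, at 1.18, 0.928 and 0.803.

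The difference was uneven over cells. The list took a median of 0.119% of UMIs (range 0% to 1.61%) in Momordicine-I members and 0.202% (0% to 2.51%) in vehicle members, so the libraries overlapped. A share above 0.2% was found in 13 of 47 and 9 of 17 cells, and above 0.5% in 5 and 3 cells. The highest cell held 17.3% of the list's UMIs in the Momordicine-I and 38.2% in the vehicle library. When each gene lost its highest cell in either library, the list's median log2 ratio was -1.04 and 14 of 20 genes were lower. At a neutrophil-marker share of at most 0.5% the median was -2.35, and over all alternatives it stayed between -2.36 and -1.04.

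The promoters of the lower genes were searched for the core of the interferon-stimulated response element, the letters GAAA, then any 2 bases, then GAAA, on either strand, bound by the STAT and IRF complex. It stood in 11 of the 18 lower genes with a window (61.1%) and in 1079 of 27025 genes (3.99%). The lower genes were members of an interferon-response list, so a share above that of all genes could come from the choice of list alone. List genes that were not lower were not counted, so these shares say nothing of the difference between the groups. Windows of Isg15 (chr4:156200769-156201068, minus strand, 3 matches), Rsad2 (chr12:26456403-26456702, minus strand, 1 match) and Ifit3 (chr19:34583279-34583578, plus strand, 2 matches) are printed since these genes carry the difference described above, with matches in capitals, 5′ to 3′ on the gene's strand, from RefSeq, GRCm38.p6. The windows of Oasl1 and Slfn4 held no match to these letters.
Isg15: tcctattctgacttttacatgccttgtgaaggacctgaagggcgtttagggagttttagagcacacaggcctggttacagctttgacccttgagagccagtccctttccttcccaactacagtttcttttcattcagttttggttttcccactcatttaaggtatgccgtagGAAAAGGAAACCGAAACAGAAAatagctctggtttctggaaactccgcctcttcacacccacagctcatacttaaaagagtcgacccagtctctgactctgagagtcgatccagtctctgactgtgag
Rsad2: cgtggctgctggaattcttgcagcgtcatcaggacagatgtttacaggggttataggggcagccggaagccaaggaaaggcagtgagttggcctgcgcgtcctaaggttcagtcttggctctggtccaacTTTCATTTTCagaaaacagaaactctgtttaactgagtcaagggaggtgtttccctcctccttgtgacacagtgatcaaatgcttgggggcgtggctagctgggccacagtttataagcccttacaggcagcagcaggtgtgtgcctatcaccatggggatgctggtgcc
Ifit3: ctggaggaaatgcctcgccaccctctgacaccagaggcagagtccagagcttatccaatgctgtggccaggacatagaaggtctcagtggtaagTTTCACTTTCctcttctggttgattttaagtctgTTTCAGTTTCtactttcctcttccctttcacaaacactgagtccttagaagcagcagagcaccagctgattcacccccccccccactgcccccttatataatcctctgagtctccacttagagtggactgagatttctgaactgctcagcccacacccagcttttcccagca

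**Figure D5:**
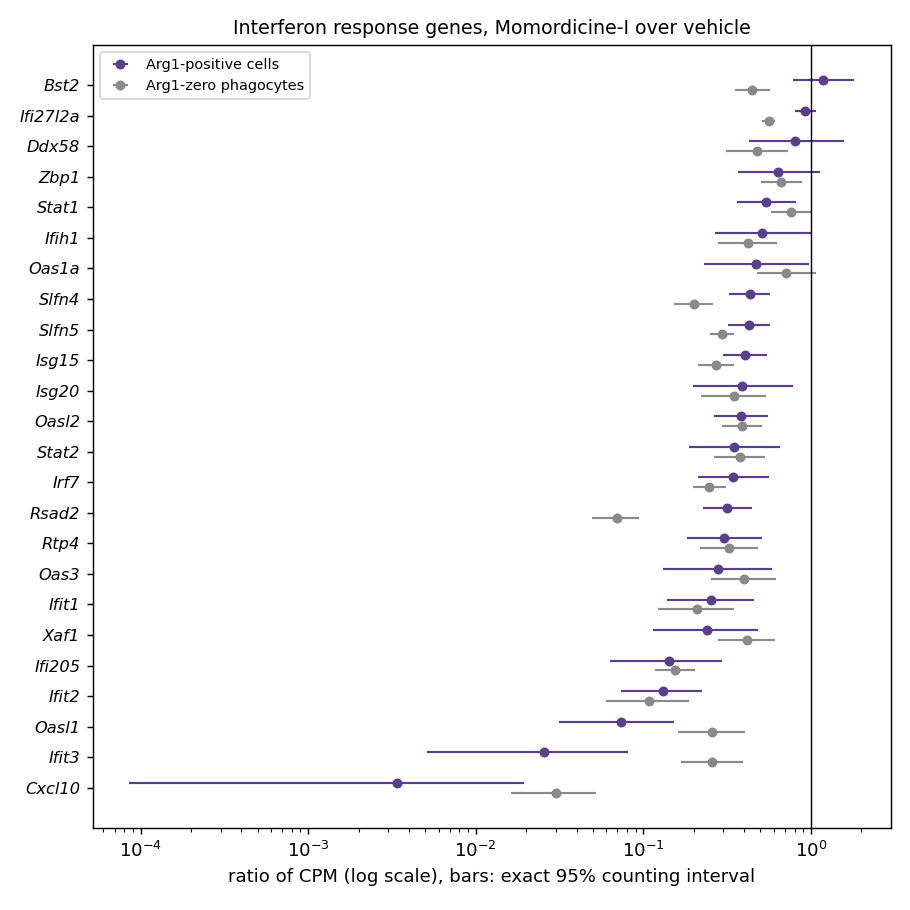
Ratio of CPM, Momordicine-I over vehicle, for 24 interferon-response genes in Arg1-positive cells and in Arg1-zero phagocytes, on a log axis with exact 95% intervals. In Arg1-positive cells 21 of 24 lie at least 1.5-fold below 1, Isg15 at 0.405 and Rsad2 at 0.317.

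Genes of low oxygen and of respiration leaned in opposite directions between the libraries. The background for members was 24.8% higher and 16% lower over 5850 genes with at least 20 UMIs, with a median log2 ratio of 0.06. Of 17 hypoxia genes, 8 were lower and 1, Vegfa, was higher in Momordicine-I members, with a median log2 ratio of -0.52. Hilpda, a lipid droplet protein, stood at 372 CPM in the Momordicine-I library and 877 CPM in the vehicle library, a ratio of 0.424 (0.359 to 0.5), and neutrophils held 1299 and 1317 CPM of it. Slc2a1, the glucose transporter GLUT1, was at 0.528 and Egln3 at 0.413. Glycolysis genes had 4 lower (Pdk1, Hk2, Pfkl and Hk3) and 0 higher of 17, a median of -0.36. Their lower count was not far from the background share. Of 24 oxidative phosphorylation genes, 9 were higher and 0 lower, with a median of 0.53, and Sdhb, the iron-sulphur subunit of succinate dehydrogenase, stood at 141 CPM in the Momordicine-I library and 56.9 CPM in the vehicle library, a ratio of 2.48 (1.49 to 4.39). In Arg1-zero phagocytes the medians were 0.17, 0.16 and 0.03, with 2 of 17 hypoxia genes, 2 of 16 glycolysis genes and 0 of 24 oxidative phosphorylation genes lower. Per cell the medians of members lay close together, at 0.313% and 0.334% of UMIs for hypoxia, 0.835% and 0.810% for glycolysis, and 0.789% and 0.780% for oxidative phosphorylation. Over the alternatives the list medians ranged from -1.28 to -0.02 for hypoxia, from -0.58 to -0.11 for glycolysis and from 0.06 to 0.81 for oxidative phosphorylation.

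Growth, matrix and macrophage genes gave mixed results that often turned on single cells, against the background of 24.8% higher and 16% lower. Of 7 cell cycle genes measured, 6 were higher and 0 lower, but Birc5, Mcm3 and Mcm6 had 19, 19 and 21 UMIs against 1 vehicle UMI each, and Stmn1 44 against 2. Tubb5, a tubulin, was seen in most cells, at 206 CPM in the Momordicine-I library and 104 CPM in the vehicle library in 36 and 12 cells, a ratio of 1.99 (1.35 to 3.01). Of 13 tissue macrophage genes, 6 were higher (Mrc1, Mertk, Apoe, Trem2 and Ms4a7 among them) and 2 lower (Maf and Adgre1), a median of 0.54. Apoe stood at 1045 CPM in the Momordicine-I library and 696 CPM in the vehicle library, a ratio of 1.5 (1.29 to 1.75). Timp1, an inhibitor of matrix proteases, was far lower, at 62.7 CPM in the Momordicine-I library and 820.2 CPM in the vehicle library, a ratio of 0.0764 (0.0561 to 0.103), in 13 and 8 cells. Pdgfa and Pdgfb, platelet-derived growth factor chains, had 51 and 49 UMIs in 10 and 7 Momordicine-I cells and 0 in vehicle cells, at least 5.69-fold and at least 5.46-fold higher against a floor of 3 counts in the vehicle sum. Pf4, a platelet-type chemokine, had 126 against 1 UMI, with 63.5% in 1 cell.

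Chemokine, immediate early and suppressive genes completed the description. Counts as reported stand against the background of 24.8% higher and 16% lower. Of 15 chemokine-list genes, 6 were higher and 3 lower (Cxcl3, Cxcl2 and Cxcl10). Cxcl3 stood at 577 CPM in the Momordicine-I library and 1349 CPM in the vehicle library, a ratio of 0.427 (0.374 to 0.488). Among 18 immediate early genes, 6 were lower (Atf3, Zfp36, Fos, Klf6, Nr4a1 and Dusp1) and 0 higher, with a median of -0.36 and per-cell medians of 2.08% and 2.51% of UMIs. Hif1a, the oxygen-regulated chain of HIF-1, was at 481 CPM in the Momordicine-I library and 749.9 CPM in the vehicle library, a ratio of 0.642 (0.545 to 0.758). The prostaglandin synthase gene Ptgs2 was at 762 CPM in the Momordicine-I library and 1296 CPM in the vehicle library, a ratio of 0.589 (0.519 to 0.668), with 42.4% of the vehicle UMIs in 1 cell. Without its highest cell in either library the ratio was 0.928. Cd274, which encodes PD-L1, had a ratio of 0.808 (0.601 to 1.10), which includes 1, and Arg2 one of 0.749 (0.460 to 1.25). Of 12 arginine and polyamine genes, 4 were higher (Srm, Oat, Slc7a2 and Sms) and 2 lower (Asl and Nos2), a median log2 ratio of 0.25. At a neutrophil-marker share of at most 0.5%, which left 6 vehicle cells, 7 of 8 measured genes were higher and 0 lower, with a median of 1.34, and Odc1 stood at 5.09 against 0.874 as reported. Slc7a2 had 20 UMIs in 3 Momordicine-I cells and turned to 0.907 by the mean of the cells' CPM, and 93.3% of vehicle Nos2 lay in 1 cell, without which it turned to 3.34. MHC class II genes turned with the settings. As reported, 1 of 6 was lower (H2-Ab1) and 0 higher, a median log2 ratio of -0.07, while 7 of 9 were lower in Arg1-zero phagocytes. H2-Ab1 had a ratio of 0.628 (0.546 to 0.724), with 67.3% of vehicle UMIs in 1 cell, and turned to 1.39 when the highest cell of each library was left out. Of the 6 genes, 4 were higher and 0 lower at 2 or more Arg1 UMIs, 3 and 0 at 5 or more, 3 and 0 without each gene's highest cell, and 6 and 0 at the 0.5% limit. The list's median ranged from -0.22 to 3.95 over the alternatives.

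The other lists were divided, against the background of 24.8% higher and 16% lower. Of 20 myeloid transcription factors, 9 were lower (Tfec, Bhlhe40, Maf, Stat3, Id2, Hif1a, Nr4a1, Cebpd and Bach1) and 2 higher (Mitf and Cited2), and Cebpb, a driver of myeloid Arg1 in mice, stood at 2729 CPM in the Momordicine-I library and 3659 CPM in the vehicle library, a ratio of 0.746 (0.694 to 0.802). Of 18 monocyte genes, 5 were lower (Thbs1, Plac8, Ifitm6 and Nr4a1 among them) and 2 higher (Spn and Hp). Ly6c2 had a ratio of 1.26 (0.935 to 1.72), which was 2.06 without its highest cell in either library and 0.641 at a neutrophil-marker share of at most 0.5%. Of 15 NRF2 and iron genes, 5 were higher (Srxn1, Gclm, Prdx1, Slc48a1 and Tfrc) and 3 lower (Slc11a1, Txnrd1 and Sqstm1), with Prdx1, a peroxidase, at 1.58 (1.23 to 2.06) and Txnrd1, a thioredoxin reductase, at 0.576 (0.441 to 0.755). Of 12 lipid genes, 4 were higher and 5 lower, and of 20 matrix genes 4 were higher and 6 lower. The 7 growth factor genes split into 4 higher (Pdgfa, Inhba, Pdgfb and Vegfa) and 3 lower (Osm, Pgf and Hbegf), with Hbegf at 0.357 (0.264 to 0.483).

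Inflammatory and suppressive lists held more lower than higher genes. Of 13 M1-associated genes, 5 were lower (Ptgs2, Gbp2, Irf1, Nos2 and Cd80) and 1 higher (Ccl5), while of 8 M2-associated genes 4 were lower (Tgm2, Il4ra, Maf and Socs2) and 1 higher (Mrc1), so the lists of opposite name lay on the same side. Of 13 checkpoint and suppressive genes, 4 were lower (Ptgs2, Lilrb4a, Lgals9 and Entpd1) and 1 higher (Nt5e). Of 17 IL-1 and NF-kB genes, 3 were lower (Il1rn, Nfkb1 and Nlrp3) and 1 higher (Relb). Il1b, which encodes the cytokine, stood at 3155 CPM in the Momordicine-I library and 4463 CPM in the vehicle library, a ratio of 0.707 (0.662 to 0.755), less than 1.5-fold, and neutrophils held 13873 and 11449 CPM. Of 16 lectins and receptors 3 were higher and 2 lower, of 7 complement genes 2 and 2, of 5 Fc receptors 0 and 2, of 10 stress-response genes 1 and 2, and of 14 MHC class I genes 0 and 0. These shares stand against the background of 24.8% higher and 16% lower given above.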

How the data were processed

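Each library was deposited by its authors as a matrix of unnormalised UMI counts, 32285 genes by barcodes, per the file headers. Chemistry was 10x Genomics 3' v3.1 per the labels' protocols, and the submitters' processing notes name Cell Ranger 6.0.2 and mm10. Strand use is not given in the sources used here. The Momordicine-I library held 4693 barcodes and 41804810 UMIs and the vehicle library 3642 and 33998491. Barcodes with at least 200 genes and at most 10% mitochondrial UMIs were kept, 4370 and 3364 cells. Doublets stayed in, because the automatic threshold of Scrublet called 1 and 2 cells, and removal of the highest scores (164 and 98 cells, 1 and 0 of them members) is an alternative.

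Counts were summed per library and cell set and given as CPM. Ratios have exact conditional binomial intervals and shares exact Clopper-Pearson intervals (scipy 1.17.1), for counting error only. No p-value was computed, since each group is 1 library of pooled mice. A gene counted as higher or lower between groups at 1.5-fold (at least 50 UMIs over both libraries, 20 for list members), and between cell sets at 2-fold in both libraries. Neutrophils were filtered cells without T, B or keratin UMIs whose neutrophil-marker share was above 2%. Genes named by rank needed 50 CPM, at least 10 cells with a UMI and at most 20% of UMIs in 1 cell in the library where they were higher, and were ordered by the interval bound nearest 1. Beside them stand a fixed panel and members of 25 gene lists. Panel, lists and members were chosen with earlier results of these data known. Gene positions come from GENCODE M21 by Ensembl identifier, and promoter windows from RefSeq (GRCm38.p6) by symbol. Near-identical genes can split reads. Scripts used Python 3.11.15, numpy 2.4.6 and pandas 2.3.3 and were tested on simulated counts. Some genes of the lists and ranks are not reported here.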

Additional observations from a re-analysis of the deposited data

Results flagged for a closer look

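Only the genes named by rank and the fixed panel were searched here, and a difference of at least 1.5-fold in Arg1-positive cells was required. For 6 of these genes the ratio of Momordicine-I over vehicle lay on opposite sides of 1 in Arg1-positive cells and in Arg1-zero phagocytes, and both intervals left out 1. Part of the ranking had picked genes for that ratio in Arg1-positive cells, and the share over all genes was not counted. In each case the difference between the cell sets was not tested. Adam8 was at 0.434 in Arg1-positive cells and 1.40 in Arg1-zero phagocytes, Hif1a at 0.642 and 1.21, Lilr4b at 0.401 and 1.14, Srgn at 0.492 and 1.15, and Ptgs2 at 0.589 and 2.14. For Ptgs2, 1 vehicle Arg1-positive cell held 42.4% of the UMIs, and without the highest cell of each library the ratio in Arg1-positive cells was 0.928. Ifi30 ran the other way, at 2.53 in Arg1-positive cells and 0.819 in Arg1-zero phagocytes. The neutrophil-marker share per cell had a median of 0.0823% in Momordicine-I and 0.753% in vehicle Arg1-positive cells, against 0.0598% and 0.0695% in Arg1-zero phagocytes, and its part in these differences was not tested.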

How the results depend on the processing

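Among the limits are the single library per group, the neutrophil-marker share (medians of 0.0823% in Momordicine-I and 0.753% in vehicle members) and the 17 vehicle cells: 1 cell held over 50% of the vehicle UMIs of some named genes. No paired analysis was possible because each group is 1 library. The ratio of the members' shares, Momordicine-I over vehicle, stayed above 1, between 1.62 (at least 5 Arg1 UMIs) and 3.85 (at most 0.5% neutrophil-marker UMIs). Over all results and alternatives, 1867 values stayed within their interval or 1.5 times, 561 moved beyond it without turning a called direction, and 19 turned. Between groups, the median log2 ratio of the MHC class II list ranged from -0.22 to 3.95 and that of the arginine and polyamine list from -0.13 to 1.34.

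Counts of genes moved with the settings. Genes at least 2-fold lower than in Arg1-zero phagocytes, 76 as reported, were 118 at 2 or more Arg1 UMIs, 168 at 5 or more and 39 without cells holding a UMI of other-type markers. The 53 higher genes were 87 at 10 or more Lyz2 UMIs. Without each gene's highest cell, genes lower in Momordicine-I members numbered 233, and those higher and lower than in Arg1-zero phagocytes 28 and 131. Thinned to 2000 UMIs per cell, counts were 40 higher and 46 lower between groups, and 7 and 10 between cell sets. At a minimum of 20 UMIs they were 1449 and 937, and 117 and 134. With no minimum they were 2425 and 1829, and 134 and 151. Fewer cells, UMIs or genes enter under the stricter settings by construction.

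Directions that turned, the cause not tested, were these. For Momordicine-I over vehicle, H2-Ab1 was 1.53 and 1.30 at 2 and 5 or more Arg1 UMIs, 13.7 at a neutrophil-marker share of at most 0.5% and 1.39 without its highest cell. Spp1 was 5.32 at that share and 1.25 without cells holding other-type UMIs. Slc7a2 was 0.605 with no limit on C1q, 0.669 without its highest cell and 0.907 by the mean of the cells' CPM. Ccl2 was 0.815 with no limit on C1q, and Nos2 3.34 without its highest cell. After thinning, Tbxas1 was 0.493, Smc3 0.739, Jak2 1.60 and Gpr35 1.29. Sums of 0 UMIs were set to 3 counts in such ratios, so the Tbxas1 and Smc3 values can rest on this floor. Over Arg1-zero phagocytes, vehicle Cx3cr1 was 1.2 at a neutrophil-marker share of at most 0.5% and vehicle H2-Ab1 1.28 without cells holding other-type UMIs. Momordicine-I Nos2 was 0.786 by the mean of the cells' CPM and 0.603 after thinning.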
